A study of Arabidopsis thaliana and Lactuca sativa with 158 samples.

Results

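The 6 rows of the deposited tables that are named after parts of plant transformation constructs other than RUBY are described here: the promoters 35SPro and NosPro, the terminators 35STerm and NosTerm, and the reporter genes GUS and eGFP. They were chosen by name, as 6 of the 86 targets that the tables of the series list. The 4 promoter and terminator rows were present in the tables of the 10 inflorescence libraries, and the 2 reporter rows in those of the 10 inflorescence libraries, of 92 of 112 Arabidopsis leaf libraries and of 36 lettuce libraries.

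The study enriched long cDNA reads of chosen loci with biotinylated probes and sequenced them on a nanopore instrument. The inflorescence libraries (immature buds, Columbia-0 background) came from the mutants polv (3), poliv/polv (1) and ddm1 (3) and from Col-0 (3), and all 10 are labelled as carrying 35S::RUBY, although their tables hold no RUBY row. The Arabidopsis leaves were 4 weeks old and carried RUBY, a reporter for red betalain pigment, under the maize ubiquitin promoter ZmUBQ (9 fully green, 9 fully red and 4 always red leaves) or under the 35S promoter. The 35S leaves came from dcl1234 plants (8 always red) and from Col-0 plants (2 always green, 13 green parts, 13 red parts, 9 fully green, 13 fully red and 11 always red), and 1 further leaf is labelled Col-0 Green and, like the others, 35S::RUBY. A further 20 leaves, with 35S::RUBY_3Q (10), with 35S::RUBY_fs (6) or labelled T1 (4), are those in which the elements were not analysed here. The lettuce leaves were also 4 weeks old and carried RUBY under 35S or ubiquitin promoters. Under 35S there were 3 always green, 3 always red, 3 fully green and 3 fully red libraries. Under ubiquitin promoters there were 6 always green, 6 always red, 2 fully green, 2 fully red, 4 green parts and 4 red parts. The labels name neither the alleles of polv, poliv, ddm1 and dcl1234 nor what the vectors hold besides the promoter and RUBY. Nothing in the labels says that inflorescence replicates came from separate plants, so that p-values measure the spread between these libraries. Leaf groups hold several leaves of the same line. The 8 dcl1234 leaves came from 2 lines, the 11 always red 35S leaves from 6 and the 13 green parts from 8. The fully green and fully red ZmUBQ leaves came from 3 lines. The main fits took such leaves as separate libraries, and line means were an alternative.

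The 35S promoter and terminator come from the cauliflower mosaic virus, where they start and end its 35S transcript, and the nopaline synthase promoter and terminator (Nos) from the T-DNA of Agrobacterium, the bacterium that moves T-DNA into plant genomes. Such elements are commonly used in transformation vectors, among them the vectors behind many collections of insertion mutants, to drive and end the transcription of selection markers and reporters. GUS is the bacterial β-glucuronidase that stains tissue blue from a chromogenic substrate, and eGFP is an enhanced green fluorescent protein from jellyfish. A terminator carries the signal at which a transcript is cut and tailed, so the 3′ part of any transcript ended by it can be read in sense and with a poly(A) tail, while a promoter is normally not part of the transcript it starts.

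Signal below is the authors' normalised read count, whose factor is not stated. For inflorescence the reads were those collapsed by molecular identifier, and for leaf those of the tables of all reads. Summed over targets, the libraries held 461409 to 3173604 reads in inflorescence before collapsing and 132111 to 3808532 in Arabidopsis leaf. In lettuce they held 50 to 31599. Reads were counted from the worth of 1 read that each table's values share. The inflorescence signal summed to 1.04e+06 to 1.21e+06 for all reads, and to 53123.5 to 87242 for collapsed reads. In 3 libraries, 1 element stood apart. GUS held 62.5% of the collapsed signal of Col-0 inflorescence replicate 2 and 84.5% of the signal of the leaf labelled Col-0 Green, and eGFP held 40.3% of the signal of the 35S always green leaf of line MK017, replicate 1. The leaf labelled Col-0 Green had a RUBY signal of 295, against 24649 to 591756 in the 91 other Arabidopsis leaf libraries whose tables list the reporters. Results of the elements that rest on these libraries are given with and without them where a comparison uses them.

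In inflorescence, RNA of NosTerm, of 35SPro and of NosPro was higher in polv than in Col-0 and in ddm1. NosTerm had a signal of 20071, 20064 and 31240 in the polv libraries, against 1.70, 326 and 2.34 in the Col-0 libraries. Every polv library was above every Col-0 library, and the lowest polv library was 61.6 times the highest Col-0 library. NosTerm thus made up 38.6 ± 9.0% of the collapsed signal in polv and 0.185 ± 0.315% in Col-0 (SD, n = 3 each). The log2 fold change was 10.66 ± 1.17 (SE; limma, Benjamini-Hochberg adjusted p = 5.80e-07 over 59 targets).

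35SPro had a signal of 1086, 682 and 1381 in polv libraries, against 0, 23.7 and 2.34 in Col-0 libraries. The groups did not overlap, and the log2 fold change was 7.86 ± 0.90 (SE; limma adjusted p = 6.08e-07). NosPro was scarce in both groups, with 29.0, 20.9 and 45.9 in polv libraries and 0, 1.18 and 0 in Col-0 libraries. The Col-0 value stood for 2 reads in all, against 147 reads in polv, a ratio of pooled signal of 51.4 (95% interval 14.0 to 428, exact binomial, counting error only). NosPro rose, by 4.59 ± 0.77 on the log2 scale (SE; limma adjusted p = 7.35e-05). A target had to be above 0 in 3 libraries to be tested. NosPro met this through the 3 polv libraries, with 1 Col-0 library above 0.

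These 3 of the 5 elements tested were called higher in polv, in a comparison where 5.08% of the 59 tested targets were called higher, 22% lower and 27.1% in either direction. The 3 elements were themselves the 3 targets called higher. GUS and eGFP were tested and not called, and 35STerm, above 0 in too few libraries, was not tested. For NosTerm, 35SPro and NosPro the polv and Col-0 libraries did not overlap, as was the case for 35.6% of the targets tested. The elements also took up room in the polv libraries: the 6 together held 40.0, 31.2 and 50.8% of the collapsed signal of the polv libraries, and the other targets summed to 31897, 45789 and 32031, against 54937, 21904 and 61836 in Col-0. The median log2 fold change of all tested targets was -0.48, and with each library centred on the median of its other targets the fold changes were 11.06 for NosTerm, 8.25 for 35SPro and 4.99 for NosPro. Without Col-0 replicate 2, the library rich in GUS, they were 12.92, 9.11 and 4.97, and 4 elements were called higher in place of 3, GUS then being 6.31 higher on the log2 scale (limma adjusted p = 1.5e-05).

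**Figure D1:**
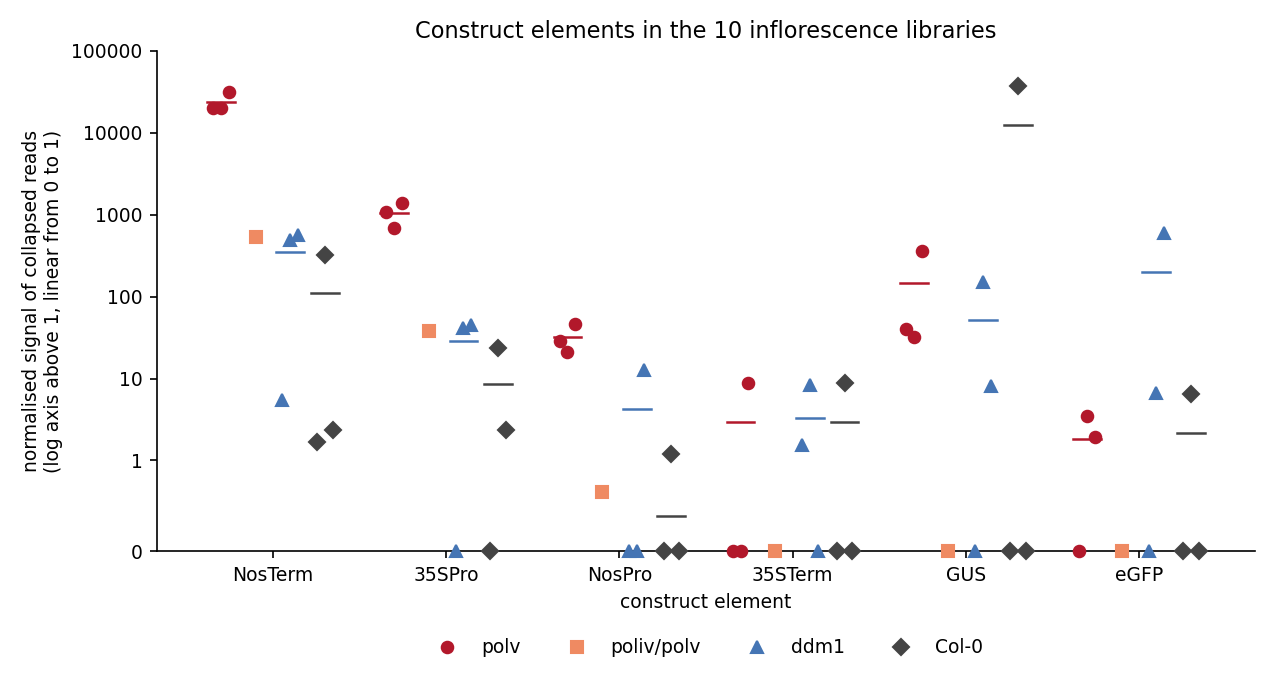
Normalised signal of collapsed reads of each construct element in the 10 inflorescence libraries, 1 point per library, with a short line at the mean of groups of 3. NosTerm, 35SPro and NosPro lay higher in the 3 polv libraries than in all others, and GUS was at 37055 in 1 library, Col-0 replicate 2.

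Against ddm1, the same 3 elements were called higher in polv. NosTerm had 5.47, 486 and 563 in the ddm1 libraries, below all 3 polv libraries, and the log2 fold change of polv over ddm1 was 7.58 ± 1.62 (SE; limma adjusted p = 0.00679 over 65 targets). 35SPro had 0, 41.4 and 45.1 in ddm1, and was 6.33 ± 1.42 higher in polv on the log2 scale (SE; limma adjusted p = 0.00803). NosPro had 0, 0 and 12.9 in ddm1, with 3.71 ± 1.06 (SE; limma adjusted p = 0.0194). Here too NosPro was tested because the polv libraries were above 0, with 1 ddm1 library above 0. In this comparison 9.23% of the tested targets were called higher, 44.6% lower and 53.8% in either direction, and 66.2% had groups that did not overlap. The call of NosPro was lost without polv replicate 2 (limma adjusted p = 0.057), polv replicate 3 (0.093), ddm1 replicate 1 (0.061) or ddm1 replicate 2 (0.073). The comparisons of polv with Col-0 and with ddm1 share the polv libraries.

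The single poliv/polv library did not have the polv level. Its NosTerm signal was 534, and the 3 polv libraries pooled held 42.2 times that level (95% interval 39.4 to 45.2, exact binomial, counting error only). Its 35SPro signal was 38.4, and polv held 28.1 times that level (21.7 to 36.9). Its NosPro signal of 0.650 was 1 read. With 1 library, these differences have no replicate check.

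In ddm1 against Col-0, none of the 5 elements tested was called by limma, and none had an unadjusted p below 0.05, in a comparison where 26.2% of the 65 tested targets were called, all higher. The log2 fold changes were 3.08 for NosTerm (limma adjusted p = 0.32), 1.52 for 35SPro, 0.42 for 35STerm, 3.08 for eGFP and -1.59 for GUS. The replicates of both groups were spread widely: NosTerm was at 486 and 563 in ddm1 replicates 2 and 3 and at 326 in Col-0 replicate 2, but at 5.47 in ddm1 replicate 1 and at 1.70 and 2.34 in Col-0 replicates 1 and 3. Without ddm1 replicate 1, NosTerm (5.19, limma adjusted p = 0.0035) and eGFP (5.10, limma adjusted p = 0.010) were called higher, and without Col-0 replicate 1 GUS was called lower (-4.12, limma adjusted p = 0.013). Without Col-0 replicate 2, the library rich in GUS, no element was called, with log2 fold changes of 5.33 for NosTerm (limma adjusted p = 0.11) and 3.47 for GUS (limma adjusted p = 0.31), the sign of GUS having turned. NosPro, above 0 in too few libraries, was not tested here.

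35STerm was at 0 in 6 of the 10 libraries. It had 0, 0 and 8.78 in polv, 0 in poliv/polv, 1.56, 8.27 and 0 in ddm1, and 0, 8.89 and 0 in Col-0. The highest of these values stood for 15 reads. The log2 fold change of polv over ddm1 was -0.43 ± 1.18 (SE; limma adjusted p = 0.73).

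GUS was led by 1 library in inflorescence, although it was above 0 in 6 of 10. It had 40.3, 32.5 and 362 in polv, 0 in poliv/polv, 0, 149 and 8.05 in ddm1, and 0, 37055 and 0 in Col-0. The value of Col-0 replicate 2 came from 62548 collapsed reads and was 102 times the next highest library. At a 3-read floor, the Col-0 libraries at 0 allowed a signal of up to 2.55 in replicate 1 and 7.03 in replicate 3. The log2 fold change of polv over Col-0 was 1.25 ± 2.36 (SE; limma adjusted p = 0.73), and that of polv over ddm1 2.85 ± 1.82 (SE; limma adjusted p = 0.22). Centred on the other targets, GUS was called higher in polv than in ddm1 (5.15, limma adjusted p = 0.049).

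eGFP was likewise led by 1 library. It had 0, 3.48 and 1.95 in polv, 0 in poliv/polv, 0, 6.62 and 594 in ddm1, and 0, 6.52 and 0 in Col-0. Neither comparison of polv called it (log2 fold changes 0.27 against Col-0 and -2.81 against ddm1, limma adjusted p = 0.79 and 0.30). By the threshold of 1% of a library's collapsed signal, NosTerm and 35SPro were carried by the 3 polv libraries, GUS by Col-0 replicate 2, and NosPro, 35STerm and eGFP by no inflorescence library.

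The elements differed in strand and in the mark pA, by which the tables set apart reads with a poly(A) tail. Strands are those of the deposited columns. NosTerm was sense: its antisense share was 1.37, 0.330 and 0.269% in polv and 2.68% in poliv/polv. Of its sense signal 69.1, 70.8 and 65.2% was marked pA in polv (each within 1 percentage point, 95% Wilson interval), 81.0% in poliv/polv (78.1 to 83.5), 71.1 and 85.1% in ddm1 replicates 2 and 3, and 70.2% in Col-0 replicate 2 (66.3 to 73.9). The pA share of NosTerm was thus above 65% in each of these 7 libraries, at levels that differ by a factor of up to 95.9.

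35SPro had the opposite strand in polv. Its antisense share was 95.2% (95% Wilson interval 94.4 to 95.9), 96.8% (95 to 97.9) and 97.2% (96.2 to 97.9) in the polv libraries, and of that antisense signal 1.40, 2.29 and 1.53% was marked pA. In poliv/polv the antisense share was 50.8% (38.4 to 63.2, 59 reads), and 72.4% of the sense signal was marked pA (54.3 to 85.3). The intervals of poliv/polv and of each polv library did not overlap. The shares in ddm1 replicates 2 and 3 were 96.0 and 53.6%, and that in Col-0 replicate 2 was 80.0%, from 25 to 40 reads each.

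NosPro was mostly sense and not marked pA in polv, with an antisense share of 12.2, 22.2 and 2.13% and a pA share of the sense signal of 2.78, 0 and 0%. In GUS of Col-0 replicate 2, 96.4% of the signal was sense and not marked pA, 1.77% was antisense, and 1.87% of the sense signal was marked pA (1.77 to 1.98). eGFP of ddm1 replicate 3 was 92.4% sense and not marked pA, and none of its 341 sense reads was marked pA, which allows a share of up to 0.880%. In the library where each was highest, both reporters thus had a smaller pA share than NosTerm had in any of its 7 libraries. No permutation test of a share could be made in inflorescence, since no element reached a signal of 20 in 3 libraries of both groups of a comparison.

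**Figure D2:**
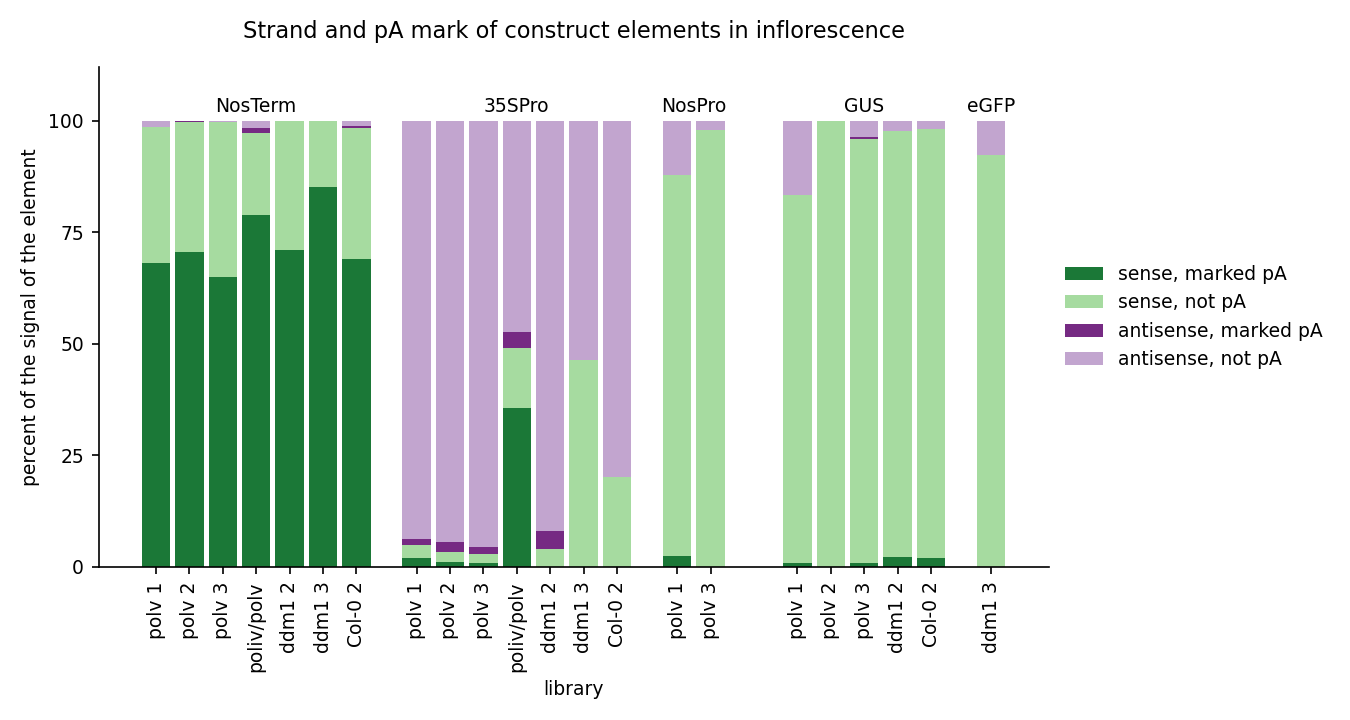
Share of each element's signal (percent) by strand and pA mark in the inflorescence libraries with 20 or more collapsed reads of the element, 1 bar per library. NosTerm was mostly sense and marked pA, 35SPro was over 95% antisense in polv, and GUS and eGFP were mostly sense without the mark.

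The number of reads behind each collapsed read differed between pairs of an element and a library, also within 1 library. Across the 412 pairs of another target and a library with 20 or more collapsed reads, a collapsed read stood for 6.05 to 29.4 reads. NosTerm stood within that range in polv (19.5, 17.8 and 17.3) and in poliv/polv (15.7), as did 35SPro in polv (25.4, 20.1 and 19.2) and poliv/polv (19.3), NosPro in polv replicates 1 and 3 (19.6 and 18.7), GUS in Col-0 replicate 2 (18.3) and in polv replicate 1 (15.0). The other 10 of the 22 pairs of an element and a library were below every other target of their own library. NosTerm had 1.40 and 1.46 in ddm1 replicates 2 and 3 and 1.44 in Col-0 replicate 2. 35SPro had 5.64 and 1.43 in the same ddm1 libraries and 1.23 in Col-0 replicate 2. GUS had 1.46 and 1.38 in polv replicates 2 and 3 and 1.66 in ddm1 replicate 2, and eGFP had 1.44 in ddm1 replicate 3. These 10 pairs had collapsed signals of 23.7 to 594, and the 230 pairs of other targets at signals up to 594 had 6.58 to 27.7 reads per collapsed read, with a median of 15.3.

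**Figure D3:**
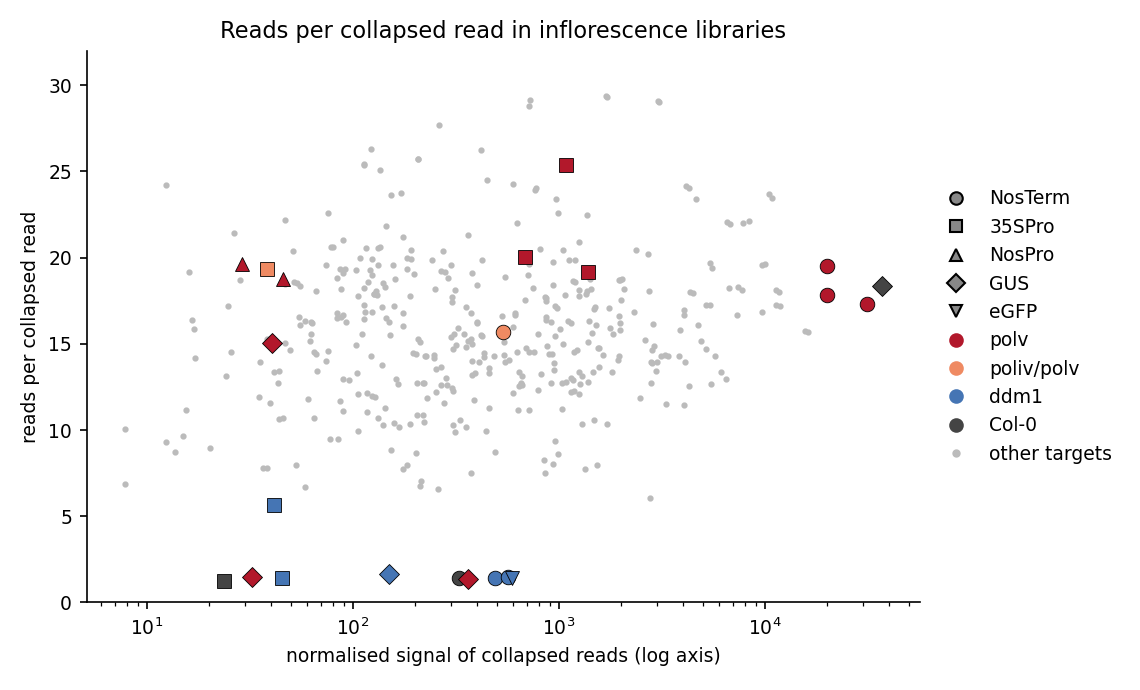
Reads per collapsed read (ratio of the signals of all reads and of collapsed reads) against the collapsed signal, for construct elements (coloured by genotype, shaped by element) and other targets (grey) with 20 or more collapsed reads in an inflorescence library. The 10 lowest element points lay between 1.23 and 5.64, below the other targets, and 12 between 15.0 and 25.4.

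The NosTerm and 35SPro values of ddm1 replicates 2 and 3 and of Col-0 replicate 2 thus came with fewer reads per collapsed read than in polv, while GUS in Col-0 replicate 2 did not. The part of this in their levels was not tested. In the table of all reads, where collapsing plays no part, polv remained higher than Col-0 for the same 3 elements. NosTerm there had 391363, 357224 and 539881 in polv, against 1.70, 470 and 9.38 in Col-0, and 682 and 821 in ddm1 replicates 2 and 3. NosTerm and 35SPro were high in the same libraries: the signal of NosTerm over that of 35SPro was 18.5, 29.4 and 22.6 in polv, 13.9 in poliv/polv, 11.8 and 12.5 in ddm1 replicates 2 and 3, and 13.8 in Col-0 replicate 2. Over the 10 libraries, NosTerm had a Spearman correlation of 0.97 with 35SPro and of 0.91 with NosPro, while the targets outside the elements that followed it best, AT5TE76210 and AT5TE76215 with 0.65 each and AT5G52070 with 0.64, are 3 rows that the tables name after the gene AT5G52070. The same 3 rows were the closest to 35SPro (0.61 to 0.62) and to NosPro (0.50 to 0.51), and AT3TE63860 was the closest to GUS (0.26) and, tied with AT2G02210, to eGFP (0.46). These correlations share libraries and depth and are a description.

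The share of collapsed signal that was full-length by the authors' definition was 11.8, 8.47 and 11.1% for NosTerm in polv, against a median over other targets of 6.73, 3.94 and 4.99% in the same libraries. In poliv/polv NosTerm had 3.65%, with a median of 6.66% over other targets. In Col-0 replicate 2 NosTerm had 11.27% and GUS 3.72%, with a median of 2.14%. The other targets spanned shares from 0 to over 99% in each of these libraries. In the full-length tables, which have no 35S rows, NosTerm remained called higher in polv than in Col-0, while NosPro was not called (log2 fold change 2.33 from collapsed and 5.87 from all full-length reads, limma adjusted p = 0.20 and 0.072).

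Of the silencing genes among the targets, none of 6 tested (SDE3, AGO1, AGO4, AGO6, RDR6, DCL4) was called in polv against Col-0, with log2 fold changes between -1.03 (AGO6) and -0.11 (DCL4), where 27.1% of all targets were called. AGO1, the main slicer of microRNA and small interfering RNA pathways, averaged 1286 in polv and 1742 in Col-0. The Col-0 libraries include replicate 2, rich in GUS, where other targets summed to 21904, against 54937 and 61836 in replicates 1 and 3. The SEs of the 6 genes in this comparison were 0.62 to 0.71, and their values without that library are not given. Against ddm1, AGO1 (-1.20), AGO4 (-0.78) and AGO6 (-1.48) fell in polv (limma adjusted p = 0.0067, 0.012 and 0.0073), while SDE3 (-0.79), RDR6 (-0.65) and DCL4 (-0.35) were not called. That is 3 of 6 called lower, beside 44.6% of all tested targets. The median log2 fold change was -0.95 over all tested targets and -1.19 over those outside the transgenes. AGO1 lay close to the second of these medians, and AGO4 on the side of less change from both. Targets other than the elements summed to 31897, 45789 and 32031 in polv, and to 72223, 73753 and 86019 in ddm1. The part of this shift in the AGO values was not tested. AGO4 and AGO6 load the small RNAs that direct DNA methylation.

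In Arabidopsis leaf, GUS and eGFP each made up 1% or more of the signal in 1 of 92 libraries. GUS had a signal of 609741, from 1568207 reads, in the leaf labelled Col-0 Green, where eGFP had 140 and RUBY 295. The GUS signal was 14.0% antisense, and 0.647% of its sense signal was marked pA (95% Wilson interval 0.634 to 0.661). The signal of all targets outside the transgenes summed to 111409 in that leaf, against 129823 to 756065 in the other 91. In the 21 of these that share its numbering set, described below, the sum was 129823 to 360167. The group has 1 library, which entered no comparison.

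eGFP had a signal of 242115, from 502196 reads, in the 35S always green leaf of line MK017, replicate 1, and 0 in replicate 2 of that line, where 3 reads would be a signal of 16.6. Of the signal of replicate 1, 3.20% was antisense, and 0.0389% of its sense signal was marked pA (0.0337 to 0.0448). RUBY was present in both always green leaves, at 200026 and 455739. In the 11 always red 35S leaves, eGFP ranged over 0 to 10.6, with a median of 0 and 4 leaves above 0. The groups overlapped, as the replicate at 0 was no higher than the red leaves, and eGFP was not called (log2 fold change 8.07 ± 2.61, SE, limma adjusted p = 0.058), in a comparison where 4.17% of 72 targets were called. The value was decided by 1 leaf: without replicate 1 the log2 fold change was -0.87 (limma adjusted p = 0.85), and without replicate 2 it was 17.02 (limma adjusted p = 2.4e-06), a fit in which the lone green leaf is assumed to vary like the red ones.

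Outside these carriers, both reporters were at low levels. GUS was above 0 in 66 of the other 91 libraries, with a median signal of 12.0 and a highest of 3361, or 0.341% of a library's signal. It was at 100 or more in 24 libraries. The highest came from line MK044, replicate 3, whose libraries had a GUS signal of 1781 in green parts, 95.1 in red parts, 690 in the fully green leaf and 3361 in the fully red leaf. RUBY had 82079, 398818, 131710 and 591756 in the same 4 libraries, so that GUS did not order them as RUBY did. Next came an always red 35S leaf of line MK016, replicate 1, with 1507. Among the other lines and replicates with 2 to 4 libraries, GUS reached at most 346, and the 4 libraries of MK016 replicate 3 ranged from 4.85 to 12.0.

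GUS was not called in any of the 9 leaf comparisons whose tables list it on both sides. In 35S leaves it had a median of 32.2 in green parts (0 to 1781, 11 of 13 above 0), against 26.5 in red parts (0 to 157, 9 of 13), a log2 difference of 1.51 ± 1.15 (SE; limma adjusted p = 0.65; 1.75% of targets called). It had a median of 11.5 in fully green leaves (0 to 690, 8 of 9), against 4.85 in fully red leaves (0 to 3361, 9 of 13), with 0.89 ± 1.39 (limma adjusted p = 0.89; 1.67% called). Fully red leaves, compared with always red ones (median 24.9, 0 to 1507, 9 of 11), differed by -0.73 ± 1.31 on the log2 scale (limma adjusted p = 0.81; 0% called, and 3 of 58 targets with an unadjusted p below 0.05). Always green leaves, with 46.3 and 5.54, had -0.12 ± 2.30 over always red leaves (limma adjusted p = 0.96). The groups overlapped in each case.

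In always red leaves, dcl1234 had a median GUS signal of 0.725 (0 to 276, 4 of 8 above 0), against 24.9 in Col-0, a log2 difference of -1.79 ± 1.38 (SE; limma adjusted p = 0.27), where 48.3% of targets were called. Of the genes that the name dcl1234 stands for, DCL4, a Dicer-like enzyme that cuts small RNAs, was a target, and its signal averaged 4490 in dcl1234 and 3462 in Col-0 (log2 fold change 0.48 ± 0.28, SE, limma adjusted p = 0.15). The level of that RNA does not check the genotype, since the allele is not given. The dcl1234 and Col-0 leaves are in different numbering sets, which are described below. Under ZmUBQ, GUS had a median of 14.6 in fully green leaves (0 to 346, 7 of 9), against 0 in fully red leaves (0 to 106, 4 of 9), with 2.81 ± 1.42 (limma adjusted p = 0.31; 1.96% called). ZmUBQ over 35S gave -0.75 ± 1.72 in always red leaves (limma adjusted p = 0.83; 18% called), -1.79 ± 1.3 in fully red leaves (adjusted p = 0.28; 20.7% called) and 0.12 ± 1.44 in fully green leaves (adjusted p = 0.93; 12.7% called). The green-minus-red difference of GUS within a line and replicate was 2.81 under ZmUBQ and -0.02 under 35S on the log2 scale. These did not differ beyond the spread of the 9 pairs of each (exact two-sided permutation test, p = 0.22). That test took the pairs as independent, though they came from 3 lines under ZmUBQ and from 6 under 35S. eGFP was tested in 1 further comparison, always red ZmUBQ leaves (0 in 4 of 4) against always red 35S leaves, a log2 difference of -0.87 ± 0.92 (limma adjusted p = 0.62).

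**Figure D4:**
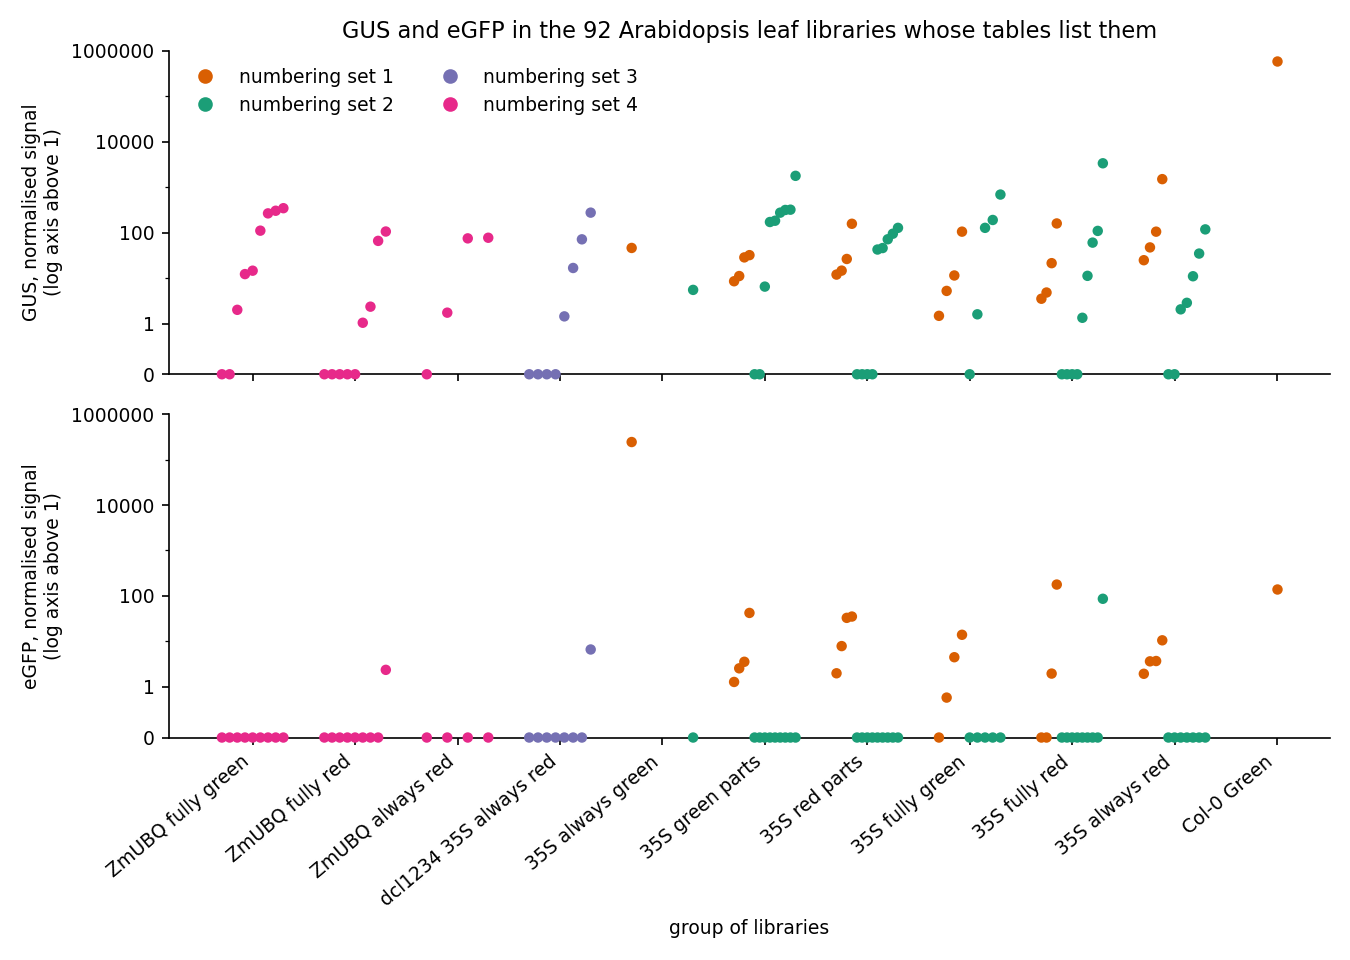
Normalised signal of all reads of GUS (top) and eGFP (bottom) in each of the 92 Arabidopsis leaf libraries that list them, by group and coloured by numbering set. GUS was at 609741 in 1 leaf and eGFP at 242115 in 1 leaf, GUS otherwise reached 3361 in 35S fully red leaves and at most 1781 in the other groups, and eGFP was above 0 almost only in set 1.

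Whether a leaf had any eGFP moved with the numbering of the libraries. The sample names inside the leaf tables start with a number, and numbers recur between libraries. The libraries were divided here into numbering sets within which no number recurs. The dcl1234 and the ZmUBQ leaves were each made a set. Of the remaining leaves, those numbered above 22 or of lines MK041 to MK045 went to set 2, the others to set 1. Lines MK016, MK017 and MK034 are thus in both. The labels do not say what the numbers stand for. Set 1 (22 libraries) holds Col-0 Green, MK017 replicate 1 and other 35S leaves, set 2 (40) further 35S leaves, set 3 (8) dcl1234 and set 4 (22) ZmUBQ. Apart from the carrier, eGFP was above 0 in 18 of 21 libraries of set 1 (0 to 178), but in 1 of 40 of set 2 (86.8 in the fully red leaf of MK044 replicate 3), 1 of 8 of set 3 (6.67) and 1 of 22 of set 4 (2.38). GUS was above 0 in all 21 other libraries of set 1 (1.49 to 1507), and in 27 of 40, 4 of 8 and 14 of 22 of sets 2 to 4. Set 1 thus held both carriers and had both reporters at a low level in most of its other libraries; the part of the set in those levels was not tested. Sets 3 and 4 were drawn to hold the dcl1234 and the ZmUBQ leaves alone, so that set and group cannot be told apart there.

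The strand of the low GUS signal also differed between sets 1 and 2. In Col-0 Green itself 14.0% of GUS was antisense. Over the other 21 libraries of set 1, 12.0% of the summed GUS signal was antisense, against 0.368% over the 27 libraries of set 2 with GUS. The share was 1.91% over the 14 libraries of set 4 with GUS. One library held most of the first sum, the always red leaf of MK016 replicate 1 with 2841 of 3854 reads and 14.6% antisense, and without it the share was 7.33%. Without its own highest library, the fully red leaf of MK044 replicate 3, set 2 had 0.0549%. Among libraries with 20 or more GUS reads, 11 of 14 in set 1 had antisense signal (median share 9.04%, Col-0 Green included), against 2 of 19 in set 2, 0 of 2 in set 3 and 3 of 8 in set 4. The highest share in set 4 was 13.5%, so high shares were not confined to set 1. Of the 66 libraries with low GUS, 56 had no GUS read marked pA, and those with one were 8 of 21 in set 1, 1 of 27 in set 2, 0 of 4 in set 3 and 1 of 14 in set 4, at differing numbers of reads. In all, 8 permutation tests of the pA and antisense shares of GUS in 4 leaf comparisons made no call (exact, two-sided, adjusted p = 1.0 in each). In 35S green parts against red parts, for example, the antisense share was 0.999 ± 2.82% (SD, n = 8) and 2.98 ± 5.11% (SD, n = 7; exact permutation p = 0.32). Tests of 4 against 4 libraries (70 permutations) or 4 against 5 (126) had too few permutations for any to pass alone after adjustment. The 35S groups also hold leaves of both set 1 and set 2. The lack of calls therefore does not show that the groups were alike.

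**Figure D5:**
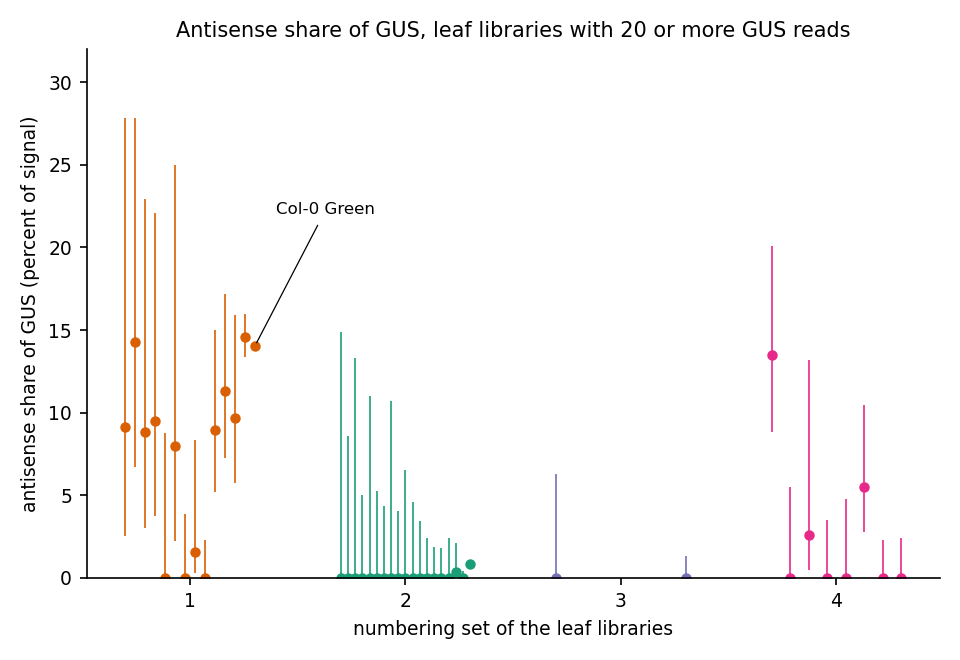
Antisense share of the GUS signal (percent, with 95% Wilson intervals for counting error) in the Arabidopsis leaf libraries with 20 or more GUS reads, by numbering set, with libraries ordered by GUS signal within a set. Shares reached 14.6% in set 1 and 13.5% in set 4, near the 14.0% of Col-0 Green. Those of set 2 were at most 0.815%.

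Full-length collapsed reads of the reporters were few in leaf. GUS had 67 such reads, a signal of 26.1, in Col-0 Green, and eGFP had 3 in MK017 replicate 1 and 1 in the fully red leaf of MK044 replicate 3. The other leaf libraries had none. A closest target by the rule of likeness was had for GUS alone, which was above 0 in 67 of the 92 leaf libraries, and it was weak: AT4TE16650 with a Spearman correlation of 0.18, AT4TE84225 with 0.15 and AT4G07965 with 0.15.

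In lettuce, GUS was above 0 in 3 of 36 libraries and eGFP in 1. The fully green 35S leaf Ls608 replicate 1 had a GUS signal of 275, which was 59 reads and 2.85% of its signal (95% Wilson interval 2.22 to 3.66), and an eGFP signal of 4.66, which was 1 read. The fully red leaf Ls608 replicate 2 had 33.1 (8 reads), and the always green leaf Ls611 replicate 1 had 17.3, which was 4 reads of a library in which GUS then made up 3.39% (1.33 to 8.39). In the other 33 libraries GUS was at 0. Across all 36, a floor of 3 reads was a signal of 10.8 to 20.9, or 0.00949 to 6.00% of a library, so that GUS at the share of Ls608 replicate 1 could have been missed in the shallowest. No comparison of lettuce groups was made for these elements.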

How the data were processed

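The 158 libraries are target-enriched nanopore cDNA libraries; groups follow the labels. The authors' build is TAIR10 and cutadapt was used, without a version, per the submitters' processing notes; aligner and counter are not given in the sources used here. The deposited values have the unit signal: normalised counts per target, split per the file headers by strand and pA, of all reads and, where deposited, of collapsed and full-length reads. The factor is not stated. What 1 read is worth was inferred in each library as the unit of which its values are whole multiples (all 2802 values in inflorescence and all 15652 in Arabidopsis leaf, within their rounding, and 254 of 258 in lettuce), and gave reads, 95% Wilson intervals and 3-read floors, which cover counting error only. Tables have too few low values for a count model, so none was run. No 2 libraries had identical tables.

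Groups were compared with limma 3.58.1 (R 4.3.3) on log2(signal + 1), with the libraries of both groups only, empirical Bayes with a trend, Benjamini-Hochberg adjustment over all tested targets, and a threshold of 0.05. Fold changes are on that scale, which understates changes of low targets. Targets above 0 in fewer libraries than the size of the smaller group were not tested. Shares were compared by exact permutation tests (Python, two-sided) where 3 libraries of both groups had a signal of 20 or more. Percentages are shares of the authors' deposited signal. On simulated data with log2 changes of 4, the fit recovered 86.7% of changed targets for polv against Col-0 and 97.1% for 35S parts. These rates are over changed targets as a whole. The SE of GUS was 2.36 and 1.15 in these comparisons, against 0.62 to 0.71 and 0.26 to 0.78 for the silencing genes. Recovery of GUS by itself was not tested. A library carries an element at 1% of its summed signal. Named targets are the elements, RUBY, the silencing genes and the 3 targets closest to each element by Spearman correlation. The members and lists were chosen with earlier results of these data known. Alternatives were another pseudocount, no filter, centring, other tables, a replicate block, numbering set, line means and leaving out libraries. In 20 leaf libraries the elements were not analysed here, so 3 of 15 comparisons give no value. Same-numbered replicates were not taken as pairs in the main fits, since fewer than all pairs correlated above 0.1 in each comparison. In 35S green parts against red parts, 9 of 13 pairs did, with a median correlation of 0.218, against -0.0193 for other numbers. In 35S fully green against fully red leaves, 5 of 9 pairs did, with a median of 0.279, against -0.0286. The main fits left this likeness out. Sequences of the elements are not printed. No tissue marker list was used, so the tissue labels were not checked against markers.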

Additional observations from a re-analysis of the deposited data

Results flagged for a closer look

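In 5 of 8 groups of 4 to 10 leaf libraries and elements that could be looked at, 1 library was far above the rest of its group; chance alone marks about 1 in 20 groups of normally distributed values, a rate that does not apply where all others are at 0, since any value above 0 is then marked. In dcl1234 always red leaves, MK073 replicate 3 had a GUS signal of 276, with the next at 71.6, and an eGFP signal of 6.67, with the 7 others at 0. In 35S fully green leaves, MK044 replicate 3 had a GUS signal of 690, with the next at 191, and MK016 replicate 3 had an eGFP signal of 14.0, with the next at 4.51. In ZmUBQ fully red leaves, MK056 replicate 5 had an eGFP signal of 2.38, which was 2 reads, with the 8 others at 0.

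A further 7 values come from libraries that entered no comparison. The poliv/polv inflorescence had signals above the highest Col-0 library for NosTerm (534 against 326) and 35SPro (38.4 against 23.7). The leaf labelled Col-0 Green had GUS at 609741 and eGFP at 140, above a 3-read floor of 1.17. In lettuce, 3 libraries had GUS above their own 3-read floor: Ls608 replicate 1 fully green (275), Ls608 replicate 2 fully red (33.1) and Ls611 replicate 1 always green (17.3).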

How the results depend on the processing

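The calls of NosTerm and 35SPro in polv, against both Col-0 and ddm1, kept their direction and passed under every alternative whose table lists them, with NosTerm at 9.46 to 12.92 against Col-0 and 5.47 to 8.69 against ddm1 when 1 library was left out. The number of elements called in polv against Col-0 was 3, and 1 in each table of full-length reads, which lack the 35S rows. With 1 library left out it was 3 to 4, and 2 to 3 against ddm1. With centring, GUS was also called higher in polv than in ddm1. For ddm1 against Col-0 the number called was 0, 1 with the replicate block (NosTerm, 3.08, limma adjusted p = 0.016) and 0 to 2 with 1 library left out. For 35S always green against always red leaves it was 0, and 1 (eGFP) with a pseudocount of 10, with the numbering set as a term and with line means, and 0 to 1 with 1 leaf left out. The replicate block changed no other count of elements. The share tests made 0 calls throughout. At a minimum signal of 100, the 6 tests had 20 to 70 permutations, too few for any to pass alone after adjustment. Their lack of calls thus decides nothing. Pairs of an element and a library at the 1% threshold were 11, with 21 at 0.1% and 6 at 5%.

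Signs turned for elements that were not called. With centring, ddm1 over Col-0 gave -0.42 for 35SPro and -1.52 for 35STerm, polv over ddm1 gave 1.87 for 35STerm, and GUS gave 0.98 in 35S always green against always red and -0.35 in fully green ZmUBQ against 35S, which line means put at -0.37. In polv against Col-0, eGFP was -0.012 with a pseudocount of 10 and -1.22 in the table of all reads, and GUS was -0.74 with a pseudocount of 10, -2.44 in full-length and -1.97 in full-length collapsed reads. GUS in 35S fully green against fully red was -0.017 with the block. With 1 library left out, ddm1 over Col-0 ranged from -4.12 to 3.47 for GUS and from -0.42 to 1.52 for 35STerm; polv over Col-0 from -1.28 to 6.31 for GUS and from -0.21 to 1.24 for eGFP; polv over ddm1 from -1.52 to 0.42 for 35STerm; 35S always green over always red from -1.55 to 1.31 for GUS and from -0.87 to 17.02 for eGFP; and always red ZmUBQ over 35S from -1.69 to 0.41 for GUS. The cause was not tested. The full-length collapsed table of leaf held too few reads of GUS and eGFP for a fit, the other table gave no share test, and 1 read was worth up to 6.98 in lettuce.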
